A study of Mus musculus with 18 samples.

Results

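This account compares 2 sets of wild-type (WT) bone marrow cultures: 3 libraries from marrow grown with GM-CSF and medium conditioned by EMT6 cells, and 3 from marrow grown with GM-CSF and IL-6. They are 6 of 18 libraries, and the genes described are the 12022 of 55536 annotated genes whose mean reached 5 CPM (counts scaled to a common library total) in at least 1 of these 2 groups. Marrow came from BALB/c mice, each sample from a pool of 3, and stayed in culture for 4 days. Both groups received GM-CSF at 40 ng/mL; one also received IL-6 at 40 ng/mL, the other EMT6 medium, collected over 24 h, at 50% of the volume. WT marrow with GM-CSF alone is quoted as a reference, and the same contrast in marrow labelled Cysltr1-deficient is described at the end. The labels do not say whether the 3 samples of a group came from separate pools and cultures, so p-values measure only the spread between these samples. No cell sorting is described, so each library holds whatever cells the cultures held.

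GM-CSF drives marrow progenitors towards neutrophils, macrophages and dendritic cells. IL-6 acts through its receptor and the gp130 chain to activate STAT3, and GM-CSF with IL-6 is a standard way to grow suppressive myeloid cells from marrow. EMT6 is a BALB/c mouse mammary carcinoma line, and its conditioned medium holds what the tumour cells secrete in place of a single known cytokine. The comparison therefore sets a mixture of tumour products against 1 defined cytokine on the same GM-CSF base. In bulk RNA, fewer cells of a type and less RNA per cell cannot be told apart.

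Gene counts ran from 23591758 to 28855190 per IL-6 library and from 13652296 to 18221674 per EMT6 medium library. The EMT6 medium libraries stood apart in their background. The share of reads outside annotated features was 36.2% ± 1.39 (SD, n = 3) there against 14.5% ± 1.14 with IL-6. Genes of olfactory, vomeronasal and trace amine receptors, which marrow is not known to use, gave 0.16 CPM per kb of exon in EMT6 medium and 0.0321 with IL-6, a ratio of 4.99 (log2 2.32). The 10 defining markers of myeloid cells, among them Ptprc, Lyz2 and Tyrobp, were counted in each of the 6 libraries, with summed levels of 8011 to 8557 CPM in EMT6 medium and 9201 to 9401 CPM with IL-6. Levels below are CPM scaled by edgeR's TMM factors, and these are not corrected for gene length.

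The 2 cultures differed across most of the transcriptome. With edgeR's quasi-likelihood test, 85.4% of tested genes passed an adjusted p of 0.05: 5253 (43.7%) were higher in EMT6 medium and 5009 (41.7%) were lower. A difference of at least 2-fold that also passed the test, which is what higher or lower by 2-fold means below, was found for 1960 genes (16.3%) in the direction of EMT6 medium and for 1365 (11.4%) in the direction of IL-6. Genes whose 3 and 3 libraries did not overlap made up 44% of those tested in the direction of EMT6 medium and 42.4% in the direction of IL-6. Part of these counts was set by the level filter: 1355 genes passed it only through EMT6 medium, and 1149 of them were higher by 2-fold, while of 526 that passed only through IL-6, 324 were lower. Of the 10141 genes past it in both groups, 811 (8%) were higher and 1041 (10.3%) lower. Counts of gene lists below include genes that passed through 1 group only, and the split is given for some lists. The largest gains were those of the granulocyte growth factor Csf3, the neutrophil attractant Cxcl1 and the antiviral gene Rsad2; the largest losses were those of the matrix protein Fn1, the ADP receptor P2ry13 and the kallikrein Klk1b9. The median log2 fold change of all tested genes was 0.02. Without the filter on level it shifted by -0.61 for the same genes and with filterByExpr by -0.53. Under these settings 1206 and 1268 of the 1960 genes stayed higher by 2-fold, and all 1365 stayed lower. Genes that were then under 2-fold include Cebpb, Nfkbia, Ifnar1 and H2-K1. Genes that were recomputed with these settings and whose sign turned carry both values below.

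**Figure D1:**
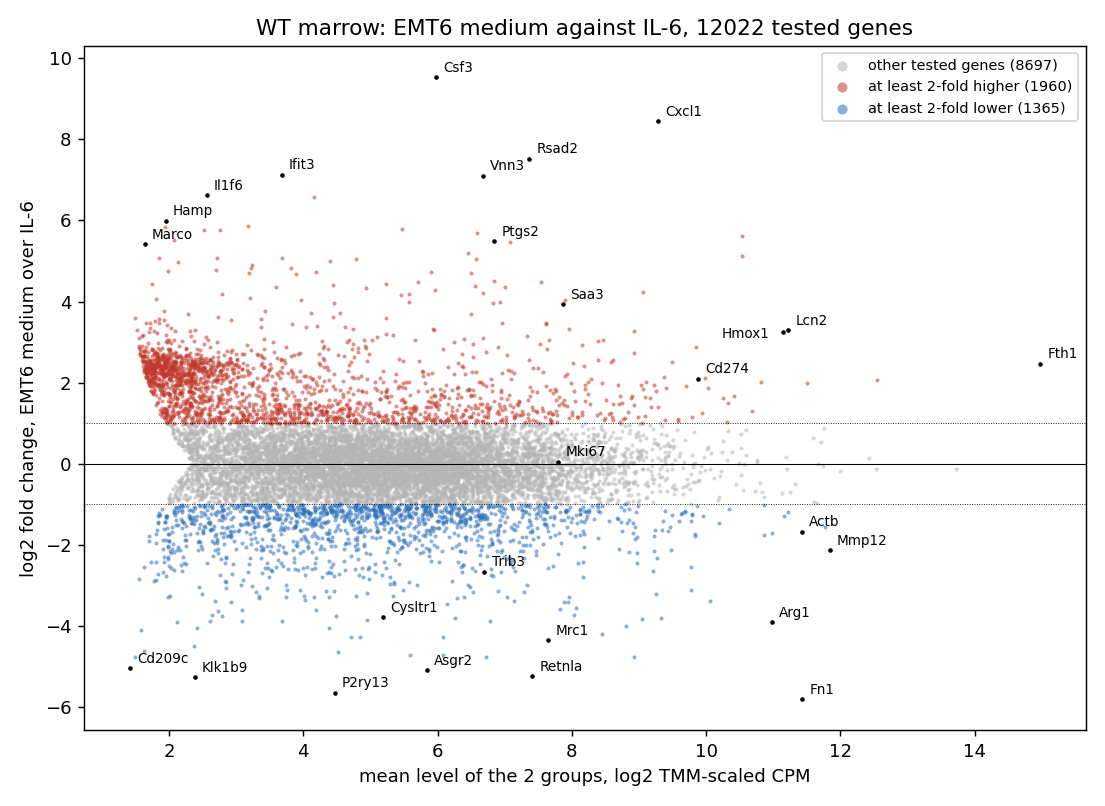
Log2 fold change (EMT6 medium over IL-6) against the mean log2 TMM-scaled CPM of the 2 groups, 1 point per tested gene; red marks the 1960 genes higher by 2-fold, blue the 1365 lower, dotted lines 2-fold, and black points the named genes. The red points crowd at the low end of the horizontal axis near a log2 fold change of 2, while Csf3, Cxcl1 and Fth1 lie far from that crowd.

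Many of the higher genes were low ones. Of the 1960, 1217 stayed under 20 CPM in both groups, with a median log2 fold change of 2.15, close to the log2 ratio of 2.32 of the olfactory receptor genes. Among the 8071 tested genes at 20 CPM or more in one group, 743 (9.21%) were higher and 980 (12.1%) lower by 2-fold. When each gene's exon length times the density of reads outside annotated features was subtracted from its count, 1568 genes were higher and 1594 lower by 2-fold. The part of the background in a single gene's difference was not tested, and that density is given below as the background level of some low genes.

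Interferon response genes rose together in EMT6 medium. Of 31 listed antiviral effectors, 29 passed the level filter, 27 of them were higher by 2-fold and none lower, with a median log2 fold change of 3.29 beside 0.02 for all tested genes. Of the 29, 13 passed the filter only through their level in EMT6 medium; among the other 16 the count was 14 higher and none lower by 2-fold, with a median of 1.73. Rsad2, which makes a chain-terminating nucleotide that blocks viral polymerases, read 323, 326 and 335 CPM in the 3 EMT6 medium libraries and 1.74, 2.19 and 1.47 CPM in the 3 IL-6 libraries. All 3 EMT6 medium libraries lay far above all 3 IL-6 libraries, with a log2 fold change of 7.52 ± 0.079 (SE; edgeR adjusted p = 2.07e-29). With GM-CSF alone Rsad2 averaged 1.69 CPM.

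Ifit2, which binds viral RNA, read 189, 184 and 190.2 CPM in EMT6 medium and 3.52, 3.34 and 3.91 CPM with IL-6 (5.70 ± 0.097). Rtp4, an interferon-induced chaperone, read 87.6, 87.9 and 84.7 against 1.63, 1.71 and 1.36 CPM. Both kept the groups apart. Oas3, which makes the messenger that activates RNase L, read 223, 205 and 210.3 CPM in EMT6 medium and 13.6, 12.9 and 14.2 with IL-6. Bst2, which tethers budding virions, read 356, 384 and 342 against 41.8, 45.7 and 44.1 CPM, and Usp18, the enzyme that takes the Isg15 tag off proteins, 114, 112 and 112 against 12.2, 10.3 and 11.8. Isg15 itself had a log2 fold change of 4.44 ± 0.10, Ifi44 of 4.99 ± 0.12 and Mx2 of 4.84 ± 0.17. Gains were small for Ifitm3 (0.69 ± 0.065), which was already at 391.6 CPM with IL-6, and for the kinase Eif2ak2 (0.86 ± 0.055). Counts within the Oas, Ifit and similar families are uncertain where their genes share sequence.

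Of the 21 interferon, receptor and signalling genes, 18 passed the filter, 8 were higher by 2-fold and 1 lower. Irf7, the factor that amplifies type I interferon output, read 365, 362 and 351 CPM in EMT6 medium and 31.9, 31.6 and 34.4 CPM with IL-6 (3.46 ± 0.053). The receptor chains rose less: Ifnar2 had a log2 fold change of 1.66 ± 0.043 and Ifnar1 of 1.26 ± 0.04. Irf9, a factor of the interferon response, had 1.16 ± 0.047, and Irf3 was slightly lower (-0.22 ± 0.052). Tmem173, the adaptor STING that senses cyclic dinucleotides, went the other way, at 16.1, 16.2 and 16.3 against 61.2, 63.1 and 64.8 CPM. The ligand Ifnb1 was too low for the test, with 39 counts over the 3 EMT6 medium libraries and 0 over the 3 IL-6 libraries. Set against the 3 counts that a count of 0 allows over the group, Ifnb1 was 21.9-fold higher in EMT6 medium. This value bounds the IL-6 side only and leaves out the error of the 39 counts. Ifnb1 was at 0.82 CPM in EMT6 medium, where the rate of the olfactory receptor genes gives 0.12 CPM for its length. Among the 15 interferon-inducible GTPases, 11 passed the filter, 5 were higher and 1 lower by 2-fold; Irgm1 read 60.7, 54.7 and 58.9 against 17, 15.9 and 17.5 CPM.

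The promoters of Rsad2 and Oas3 are shown because both genes rose strongly and both hold the interferon-response letters. The 150 bases before the gene start are printed 5′ to 3′ on the gene's strand (RefSeq, GRCm38.p6), with matches to GAAA, any 2 bases and GAAA, on either strand, in capitals: Rsad2 at chr12:26456453-26456602 (minus strand) and Oas3 at chr5:120777660-120777809 (minus strand).
Rsad2: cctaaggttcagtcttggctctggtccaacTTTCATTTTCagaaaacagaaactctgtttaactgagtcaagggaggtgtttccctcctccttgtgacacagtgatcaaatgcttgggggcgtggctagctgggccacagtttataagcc
Oas3: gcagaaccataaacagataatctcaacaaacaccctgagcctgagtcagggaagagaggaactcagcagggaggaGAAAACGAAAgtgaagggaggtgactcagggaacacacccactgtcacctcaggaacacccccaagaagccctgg
The Rsad2 match starts 120 bases before the gene start and the Oas3 match 75. In windows of 300 bases around gene starts, 13 of 22 antiviral effectors with a promoter in the table held the letters (59.1%), beside 3.99% of 27025 genes. For the effectors higher by 2-fold the count was 9 of 18 (50%). Over all 1332 genes higher by 2-fold with a promoter the share was 5.1%, beside 3.94% of 9083 tested genes. The windows of Irf7 and Ifnar2 held no match. A match is a description of these letters, not a binding site.

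Chemokine families moved in different directions. Of the 8 neutrophil-attracting CXC chemokines and receptors, 5 were higher and 2 lower by 2-fold. The filter was passed only through EMT6 medium by 2 of the 8, and the other 6 gave 3 higher and 2 lower. Cxcl1 read 1298, 1242 and 1201 CPM in EMT6 medium and 3.66, 3.64 and 3.46 CPM with IL-6, a log2 fold change of 8.44 ± 0.089 (edgeR adjusted p = 2.07e-29). Cxcl2 read 2948, 2999 and 2809 against 60.3, 60 and 58.6 CPM (5.61 ± 0.064). Neither gene had an IL-6 library within 40-fold of an EMT6 medium library. Cxcl5 rose from 1.64 to 53.7 CPM, and Cxcl3, which IL-6 cultures already held at 215 CPM, reached 1230.5 CPM. The receptor for these ligands fell instead: Cxcr2 read 37.9, 35.9 and 33.9 CPM in EMT6 medium against 287, 289.7 and 285 with IL-6, and Cxcr1 had a log2 fold change of -1.23 ± 0.11. Cxcr4, the marrow-retention receptor, had 0.53 ± 0.041 and turned to -0.09 without the level filter and -0.01 with filterByExpr.

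The stretches upstream of Cxcl1 and Cxcl2 are shown because these neighbouring genes gained most of the CXC list and each holds 2 matches to GGG, any 2 bases and TTTCC, letters of the NF-kB motif searched on both strands. The 150 bases before the start are printed as above, for Cxcl1 at chr5:90891095-90891244 and Cxcl2 at chr5:90903749-90903898 (both plus strand).
Cxcl1: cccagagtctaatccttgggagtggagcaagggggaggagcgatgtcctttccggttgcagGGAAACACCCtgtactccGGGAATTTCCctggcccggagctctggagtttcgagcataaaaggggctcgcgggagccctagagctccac
Cxcl2: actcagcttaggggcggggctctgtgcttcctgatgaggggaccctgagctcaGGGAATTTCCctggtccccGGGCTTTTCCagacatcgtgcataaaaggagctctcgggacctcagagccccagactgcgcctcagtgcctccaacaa
In the 300-base windows, 3 of 7 genes of the CXC list with a promoter held the letters (Cxcl1, Cxcl2 and Cxcl3), and 4 of 19 of the NF-kB list, beside 1.9% of all genes in the table. The windows of Cxcr2, Ccl3 and Sod2 held none.

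Inflammatory CC chemokines also gained. Ccl3, a ligand of Ccr1, read 2867, 2989.6 and 2758 CPM in EMT6 medium and 80, 84.6 and 82.4 with IL-6 (5.12 ± 0.066). Ccl4, a related attractant of monocytes and T cells, read 225, 239 and 218 against 20.3, 20 and 21 CPM, and Ccl2, the monocyte attractant, 219, 217 and 196 against 27.5, 28.4 and 30.3. In all of these the groups stood apart. Of the 6 listed, 5 passed the filter, with 4 higher by 2-fold and none lower. Cxcl10, an interferon-induced T cell attractant, was lower in level but moved in the same direction (14.3, 13.7 and 11.4 against 0.725, 0.557 and 0.839 CPM).

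Type 2 and homeostatic CC chemokines went the opposite way. Of the 8 listed, 6 passed the filter, 4 were lower by 2-fold and none higher. The filter was passed only through IL-6 by 2 of the 6, and the other 4 gave 2 lower and none higher. Ccl17 read 0.962, 0.685 and 0.645 CPM in EMT6 medium and 10.9, 11.5 and 12 with IL-6, and Ccl22 11.3, 12.8 and 10.8 against 59.5, 63.3 and 62.8; both attract T cells through Ccr4. Ccl6, one of the most abundant transcripts of the IL-6 cultures, read 1806, 1854 and 1652 against 5091, 5300.4 and 5286 CPM. Ccl17 and Ccl22 were higher still with GM-CSF alone (68.4 and 146 CPM). Another 2 members stood apart from these. Ccl9 read 886, 936 and 868 against 881, 909 and 902 CPM and did not pass (edgeR adjusted p = 0.975). Ccl8 read 54.4, 62 and 49.9 against 60.8, 60.9 and 62.7 CPM with overlapping libraries, beside a mean of 2.5 with GM-CSF alone. Its small difference (-0.15 ± 0.065; edgeR adjusted p = 0.0306) did not pass without EMT6 medium replicate 3 (0.246) or without IL-6 replicate 3 (0.0832), with a limit of 20 CPM (0.204) or with the background subtracted (0.251). Among receptors of monocytes and dendritic cells, Ccr2 fell from 282 to 31.6 CPM and Ccr1 from 544 to 205, while the chemerin-binding receptor Ccrl2 read 456, 454 and 445 against 27.1, 28.3 and 27.8 CPM.

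**Figure D2:**
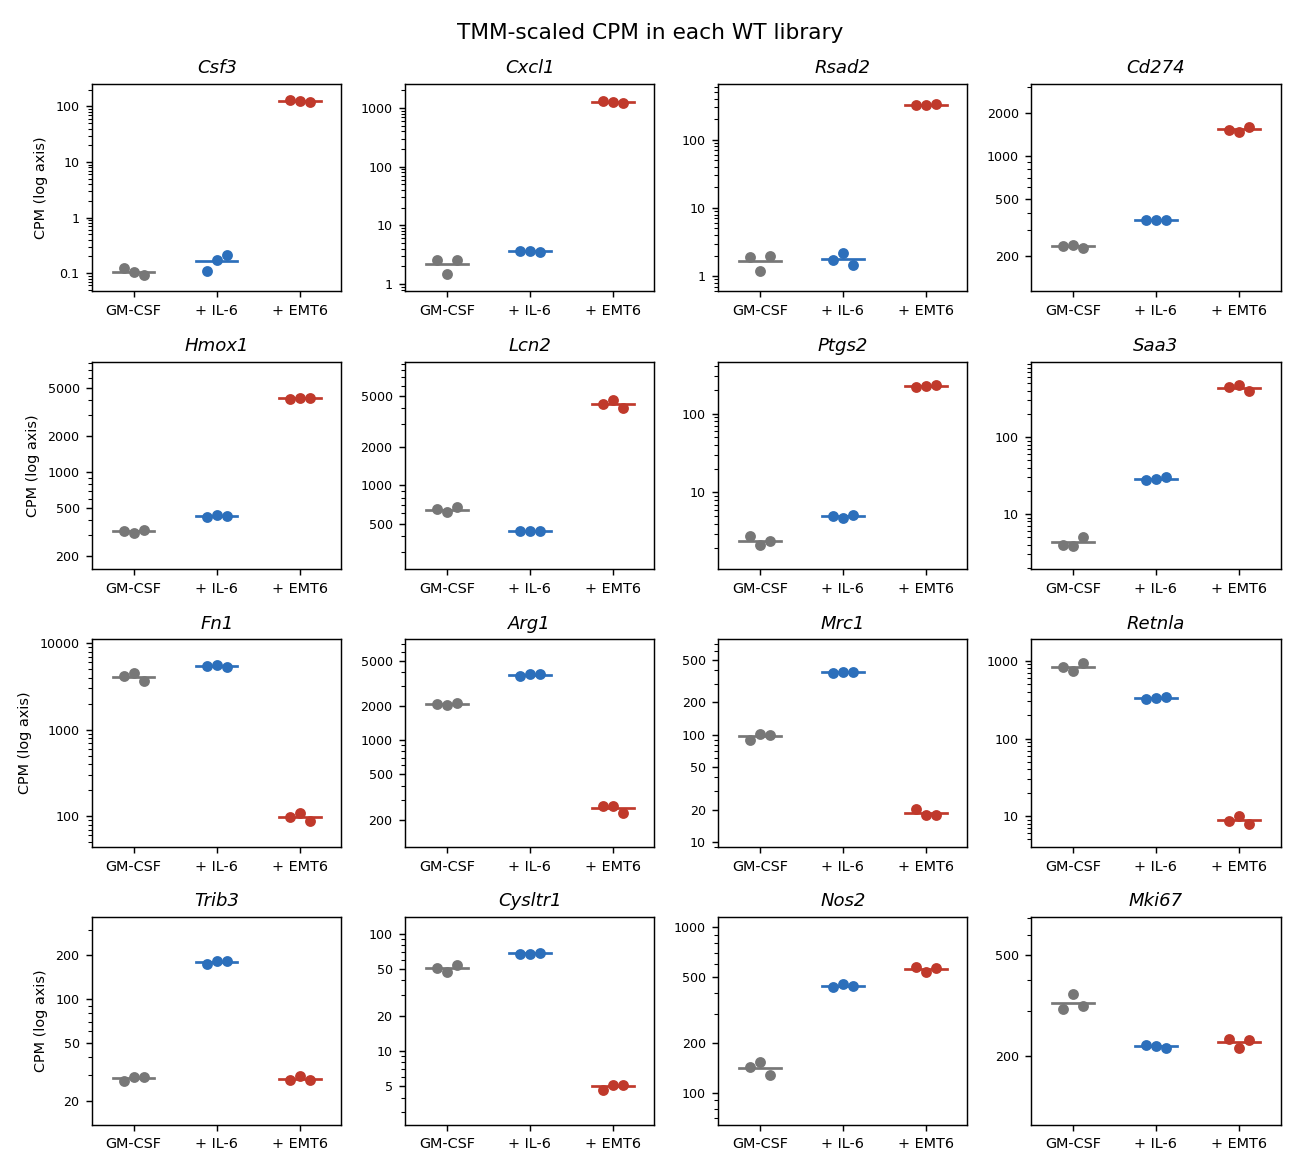
TMM-scaled CPM (log axes) of 16 genes in each WT library with GM-CSF alone (grey), GM-CSF and IL-6 (blue) and GM-CSF and EMT6 medium (red); points are libraries and bars are group means of 3. Csf3, Cxcl1, Rsad2 and Ptgs2 are far above both other groups in EMT6 medium, Fn1, Arg1, Mrc1, Retnla and Cysltr1 far below, and Trib3 is high only in the IL-6 group of these 3.

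Among colony-stimulating factors and their receptors Csf3 rose, while 7 of the 11 tested genes of the list were lower past the test. Csf3, which encodes G-CSF, read 129, 128 and 119.9 CPM in EMT6 medium and 0.109, 0.171 and 0.21 with IL-6, where it rested on 3, 4 and 6 counts. Its log2 fold change was the largest of the 12022 tested genes, at 9.53 ± 0.12 (edgeR adjusted p = 3.78e-28). Its receptor Csf3r read 192, 172 and 195 CPM against 392.5, 394 and 376 and was lower by 2-fold (-1.05 ± 0.053). Csf1, the macrophage growth factor, fell from 482, 489 and 484 CPM with IL-6 to 89.6, 91.1 and 89.9 in EMT6 medium, and its receptor Csf1r had a log2 fold change of -1.77 ± 0.04. The GM-CSF receptor chains fell as well, with log2 fold changes of -1.47 ± 0.042 for Csf2ra and -1.19 ± 0.041 for Csf2rb; the near-identical Csf2rb2 had -1.25 ± 0.042, and reads could be split between the pair. Receptors of early progenitors rose at low levels, Flt3 from 5.74 to 18.6 CPM and Kit from 15.4 to 24.6. Of the 16 genes of this list, 11 passed the filter, 2 were higher and 6 lower by 2-fold.

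Inflammatory cytokines were mostly higher in EMT6 medium: 18 of 23 listed passed the filter, 9 were higher and 1 lower by 2-fold, with a median of 1.02. The filter was passed only through EMT6 medium by 3 of the 18. The other 15 gave 6 higher and 1 lower by 2-fold, with a median of 0.70. Il1a read 222, 223 and 213 CPM against 9.03, 10.3 and 9.68 with IL-6 (4.51 ± 0.059). Il12a, the p35 chain that IL-12 and IL-35 share, read 188, 188 and 178 against 5.95, 5.27 and 5.59 CPM. Tnf read 292, 292 and 286 against 31.7, 34.3 and 32.4 CPM. All 3 kept the libraries of the 2 groups apart and gained at least 8-fold. Il1b rose less, from 22.9 to 119 CPM, and the antagonist Il1rn was the most abundant of the family, at 1659.9, 1672 and 1599 against 374, 389 and 380.1 CPM. Il1f6, which encodes IL-36 alpha, went from 0.114 to 11.7 CPM, and Il1f9 (IL-36 gamma) from 26.1 to 139. Il10 rose from 0.712 to 7.47 CPM. Tnfsf14, also called LIGHT, was the member lower by 2-fold (-2.00 ± 0.069), and Tgfb1 was lower by less (-0.94 ± 0.041). The transcript of Il6 itself read 13.3, 13.5 and 11.7 against 9.86, 10.2 and 10.7 CPM, a log2 fold change of 0.32 ± 0.085 that turned to -0.29 without the level filter and -0.20 with filterByExpr.

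Of 23 genes of NF-kB subunits and their feedback genes, 16 were higher and 5 lower past the test; 11 were higher and none lower by 2-fold. The 5 lower genes were Socs1, Tnip3, Icam1, Ier3 and Nfkb1. Sod2, the mitochondrial superoxide dismutase, read 590.2, 624 and 585 CPM in EMT6 medium and 72.4, 75.2 and 73.1 with IL-6 (3.03 ± 0.051). Tnfaip3, the deubiquitinase A20 that damps the pathway, read 403, 393 and 402 against 84, 90 and 84.6 CPM, and its partner Tnip1 396, 387 and 391 against 83.6, 89.7 and 88.5. The inhibitor Nfkbia had a log2 fold change of 1.10 ± 0.041 and Nfkbiz of 2.76 ± 0.055. By contrast Nfkb1 (-0.15 ± 0.036), Nfkb2 (0.66 ± 0.04) and Relb (0.90 ± 0.048) were within 2-fold, and the adhesion molecule Icam1 had -0.36 ± 0.048. Of 12 tested genes of Toll-like receptors and their partners, 4 were higher by 2-fold (Tlr9, Cd14, Ly96 and Irak3) and 4 lower (Tlr4, Tlr8, Tlr13 and the adaptor Myd88). Irak3, a brake on Toll-like receptor signalling, read 365, 332 and 349 against 49.7, 48.7 and 48.7 CPM, whereas Tlr4 fell (-1.54 ± 0.047) and Tlr8 fell further, to 3.28, 2.28 and 2.9 CPM from 28.2, 30.1 and 30.6. Of the 10 inflammasome genes, 3 were higher, led by Mefv (2.99 ± 0.088), and 3 lower, with Nlrp3 at 82.2, 78.1 and 87.5 against 244, 242 and 247 CPM.

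The IL-6 receptor pathway was compared through 24 listed receptor and STAT3 genes, of which 23 passed the filter, 4 were higher and 5 lower by 2-fold. The signalling chain Il6st (gp130) read 75.2, 74.3 and 80 CPM in EMT6 medium and 307, 301 and 298 with IL-6, and Il6ra 36.7, 35.5 and 35.6 against 100.3, 101 and 98.9. Both chains were lower by 2-fold, and both were higher with IL-6 than with GM-CSF alone by their means (175 and 76.2 CPM). The feedback inhibitor Socs3 read 749.6, 718 and 697 against 549.8, 555 and 556 CPM, beside 294 with GM-CSF alone. Both means lay above that with GM-CSF alone, and the difference of 0.38 ± 0.037 between the 2 cultures turned to -0.23 without the level filter and -0.15 with filterByExpr. Stat3 was slightly lower in EMT6 medium (-0.48 ± 0.048) and the kinase Jak2 lower by 2-fold (-1.12 ± 0.036). Myc, a growth factor-induced transcription factor, fell from 142 to 44 CPM, and Timp1, a protease inhibitor, from 28.3 to 4.97.

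Acute-phase and antimicrobial genes, some of which STAT3 drives in other tissues, were far higher in EMT6 medium than with IL-6. Of 15 listed, 12 passed the filter, 9 were higher and none lower by 2-fold, with a median of 1.99. The filter was passed only through EMT6 medium by 1 of the 12. The other 11 gave 8 higher and none lower, with a median of 1.62. Lcn2, which starves bacteria of iron by binding their siderophores, read 4319.7, 4668 and 4004 CPM against 440.4, 439.7 and 439 (3.30 ± 0.064). Saa3, a serum amyloid, read 447, 479 and 393 against 28, 28.1 and 29.8 CPM. Lcn2 was lower with IL-6 than with GM-CSF alone by its means (641 CPM), while Saa3 was higher (4.29 CPM with GM-CSF alone). Slpi, an inhibitor of neutrophil elastase, had a log2 fold change of 2.87 ± 0.056, and Acod1, which makes itaconate, of 3.99 ± 0.051. Cebpb, a factor of emergency granulopoiesis, was higher by 1.03 ± 0.046. Genes of the GM-CSF and STAT5 axis leaned the other way, with 2 of 16 higher and 8 lower by 2-fold: Cish, a feedback inhibitor, had -1.33 ± 0.046, Socs2 -1.73 ± 0.053, Il2ra -2.88 ± 0.056 and the decoy receptor Il1r2 -2.44 ± 0.058, while the survival gene Bcl2l1 had 1.12 ± 0.04 and the kinase Pim2 1.79 ± 0.069.

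Genes linked to T cell suppression by myeloid cells did not move together. Arg1, which depletes arginine, read 263, 265 and 231 CPM in EMT6 medium and 3689, 3846 and 3793 with IL-6, a log2 fold change of -3.90 ± 0.085 (edgeR adjusted p = 1.64e-23). No library overlapped, and the EMT6 medium level was also far below that with GM-CSF alone (2087 CPM). Slc7a2, an arginine transporter, fell alongside, from 1133, 1089.6 and 1092 to 122, 118 and 120.4 CPM. Nos2, which makes nitric oxide from arginine, read 573, 532 and 568 against 435, 453 and 440.4 CPM, beside 142 with GM-CSF alone. Its difference was 0.33 ± 0.048 and turned to -0.28 without the level filter and -0.20 with filterByExpr. The mitochondrial arginase Arg2 rose from 79 to 215 CPM and Gch1, which supplies the Nos2 cofactor, from 72.6 to 198. Of the 13 genes of this list, 12 passed the filter, 2 were higher and 4 lower by 2-fold.

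Checkpoint ligands were mixed, with 4 of 14 tested members higher and 4 lower by 2-fold. Cd274, which encodes PD-L1, read 1508, 1469 and 1592 CPM in EMT6 medium against 355, 354 and 355 with IL-6 (edgeR adjusted p = 1.21e-24), and 232 with GM-CSF alone. Its relative Pdcd1lg2 (PD-L2) moved the other way, from 38.4, 40.9 and 39.7 to 14.7, 12.9 and 14 CPM. Neither gene had overlapping libraries. Cd200, an inhibitory ligand, read 55.4, 59.2 and 57.2 against 14.2, 12.3 and 13 CPM, while its receptor Cd200r1 (-1.16 ± 0.038), the costimulator Cd86 (-1.33 ± 0.059) and the receptor Havcr2 (-2.32 ± 0.094) were lower. Vsir (VISTA), at 717 against 724 CPM, did not pass the test (edgeR adjusted p = 0.73).

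Lipid mediator genes separated sharply. Ptgs2, the inducible cyclooxygenase, read 221, 224 and 229.9 CPM in EMT6 medium and 4.97, 4.76 and 5.24 with IL-6 (5.49 ± 0.065). Ptges, which converts its product to prostaglandin E2, read 261, 275 and 259.6 against 6.67, 5.32 and 6.01 CPM (5.46 ± 0.07). Both enzymes rose by over 40-fold with no overlap, while the constitutive Ptgs1 fell from 345 to 105 CPM and the thromboxane synthase Tbxas1 from 143 to 22.5. The prostaglandin E2 receptor Ptger3 fell to 2.32 from 19.6 CPM. In the whole prostanoid list, 12 of 17 passed the filter, 4 were higher and 5 lower by 2-fold. The leukotriene list held no member higher by 2-fold and 6 lower among 13 tested. Of the 13, 3 passed the filter only through IL-6, Cysltr1 and Ltc4s among them, and 1 only through EMT6 medium. Among the other 9, none was higher and 3 were lower by 2-fold. Alox5, the enzyme that starts leukotriene synthesis, read 143, 139 and 136 against 425, 449 and 439 CPM (-1.65 ± 0.043). Cysltr1, the receptor for cysteinyl leukotrienes, read 4.7, 5.18 and 5.1 against 67.9, 67.5 and 69.2 CPM (-3.78 ± 0.083). The leukotriene B4 receptor Ltb4r1 had -2.15 ± 0.041 and the leukotriene C4 synthase Ltc4s -2.16 ± 0.13, with Ltc4s at only 4.19 CPM in EMT6 medium.

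**Figure D3:**
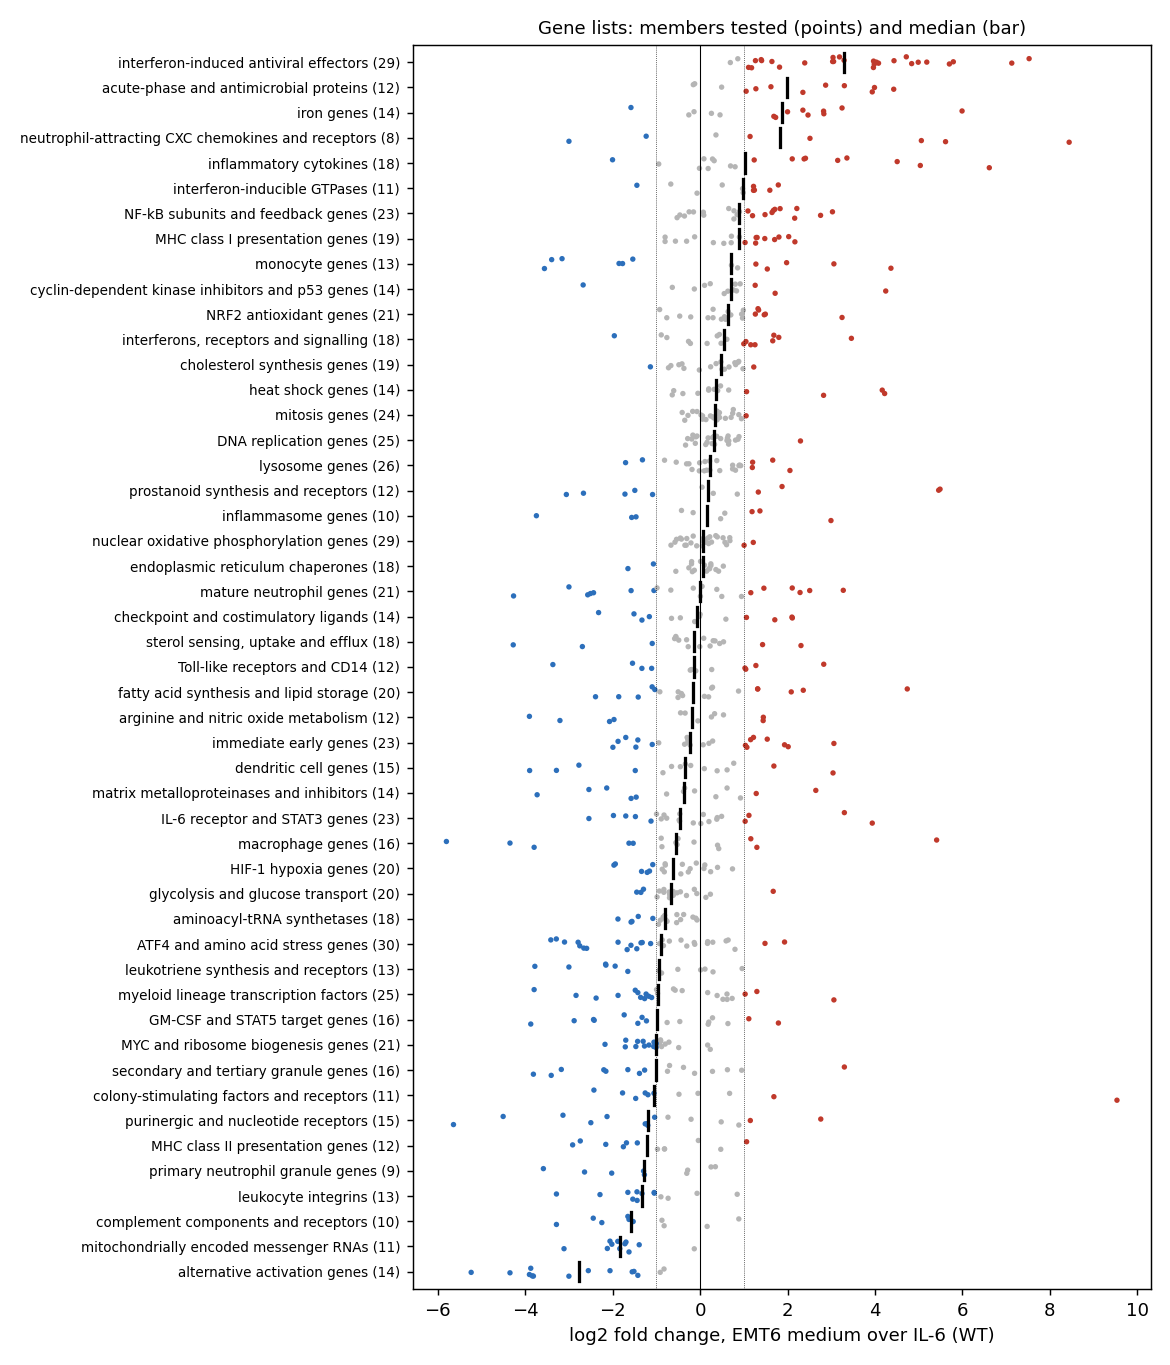
Log2 fold change (EMT6 medium over IL-6) of each tested member of the 49 gene lists with at least 8 tested members (markers of other cell types apart), 1 point per gene, with the list's median as a black bar and the number tested in brackets; red and blue points are past 2-fold. Antiviral effectors lie highest (median 3.29) and alternative activation genes lowest (median -2.78), and most lists hold members on both sides.

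Neutrophil granule genes, which are made in order as granulocytes mature, were mostly lower in EMT6 medium. Among the 9 tested primary granule genes none was higher and 5 were lower by 2-fold, and among 16 secondary and tertiary granule genes 1 was higher (Lcn2, named above) and 8 were lower. Mpo, the myeloperoxidase of primary granules, read 33.6, 38.9 and 32.4 CPM in EMT6 medium and 403, 429 and 419 with IL-6 (-3.58 ± 0.055). Ltf, the lactoferrin of secondary granules, read 40.6, 46 and 41.9 against 440.4, 462 and 453 CPM, and Camp, a cathelicidin, 5.89, 5.94 and 6.65 against 55, 54.9 and 56.7. All 3 were lower in each EMT6 medium library than in any IL-6 library, and with GM-CSF alone they were higher than in either (541, 919 and 141 CPM). Elane, the elastase, had a log2 fold change of -1.27 ± 0.054, Ngp of -0.74 ± 0.043 and Prtn3 of -0.30 ± 0.071. Mmp8, the neutrophil collagenase, read 2426, 2154 and 2215 against 2421, 2519.7 and 2470.2 CPM with overlapping libraries (-0.13 ± 0.044), and did not pass with a limit of 20 CPM (edgeR adjusted p = 0.194) or with the background subtracted (0.283).

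Genes of mature neutrophils split, with 6 of 21 tested higher and 7 lower by 2-fold. Clec4e (Mincle), which senses mycobacterial glycolipid, read 909, 898 and 852 CPM against 88.4, 90.8 and 95.3 (3.28 ± 0.047), and its neighbour in the same cluster, Clec4d, had 2.51 ± 0.067. Retnlg fell to 2.77, 2.82 and 2.19 CPM from 49.6, 49 and 51.1. S100a8 read 585, 657 and 531 against 1176, 1145 and 1179.9 CPM, a difference of -0.98 ± 0.079. Ly6g, the marker used to identify mouse neutrophils, read 111, 118 and 109 against 86.7, 86.3 and 86.3 CPM, and its difference of 0.38 ± 0.046 turned to -0.23 without the level filter and -0.15 with filterByExpr.

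Monocyte and macrophage genes were mixed, and Fn1, the macrophage list's most abundant gene with IL-6, fell. Fn1, the matrix protein fibronectin, read 97.5, 108 and 88 CPM in EMT6 medium against 5520.2, 5548 and 5251 with IL-6, a log2 fold change of -5.80 ± 0.16 (edgeR adjusted p = 2.8e-21). It was among the 5 most abundant transcripts of the IL-6 cultures and was at 4119 CPM with GM-CSF alone. F13a1, the coagulation factor XIII chain of monocytes and macrophages, fell from 492, 499 and 487 to 43.9, 40.1 and 41.2 CPM, and Vcan, a proteoglycan of classical monocytes, from 263, 255 and 252 to 26.3, 23.5 and 23.2. Other members rose: Nr4a1, a factor of patrolling monocytes and also an immediate early gene, read 90.9, 88.6 and 91.3 against 10.7, 10.9 and 10.9 CPM, the stem cell antigen Ly6a 22.8, 23.8 and 22.3 against 0.943, 1.16 and 1.22, and the scavenger receptor Marco 6.57, 5.1 and 6.58 against 0.181, 0.129 and 0.105. Cd14 was higher by 1.28 ± 0.054 and Cd68 by 1.16 ± 0.057, whereas Adgre1, which encodes F4/80, differed by far less (-0.14 ± 0.04) and did not pass with a limit of 20 CPM (edgeR adjusted p = 0.078) or with the background subtracted (0.125). Of 15 monocyte genes, 13 passed the filter, 5 were higher and 6 lower; of 22 macrophage genes, 16 passed, 3 were higher and 5 lower, all by 2-fold.

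Alternative activation genes, which IL-4 and IL-13 induce in macrophages, fell together. Of 15 listed, 14 passed the level filter, 12 were lower by 2-fold and none higher, with a median of -2.78. The filter was passed only through IL-6 by 3 of the 14. The other 11 gave 9 lower and none higher by 2-fold, with a median of -2.55. Retnla (Relm alpha) read 8.72, 9.9 and 8 CPM against 323, 334 and 340.0 (-5.23 ± 0.097). Mrc1, the mannose receptor, read 20.3, 17.9 and 17.9 against 375, 387 and 385 CPM (-4.35 ± 0.078), and Mgl2, a galactose lectin, 72.7, 72.9 and 61.4 against 969, 996 and 991. No library of one group reached the other in any of these. Mrc1 was higher with IL-6 than with GM-CSF alone by its means (96.2 CPM with GM-CSF alone), while Retnla and Mgl2 were highest with GM-CSF alone (839 and 1628 CPM). Chil3 had -3.81 ± 0.099, Tgm2 -2.55 ± 0.051 and Clec7a (Dectin-1) -1.55 ± 0.054. Of 11 listed lectins of the CD209, galactose and asialoglycoprotein families, 5 passed the filter and 4 of these were lower by 2-fold. Of the 5, 3 passed only through their level with IL-6, and 1 of the other 2 was lower by 2-fold. Asgr2 and Cd209a were among those that passed only through IL-6. Asgr2 read 3.51, 4.19 and 2.19 against 109, 110.0 and 114 CPM, and Cd209a 0.453, 0.685 and 0.516 against 8.19, 7.93 and 8.25. Others under the filter had the higher mean in EMT6 medium, such as Cd209b at 2.38 against 0.806 CPM and Cd209g at 1.71 against 0.196.

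Dendritic cell genes were less uniform, with 2 of 15 tested higher and 4 lower by 2-fold. Itgax, which encodes CD11c, read 48.2, 47.3 and 44.1 CPM in EMT6 medium and 455, 453 and 452 with IL-6 (-3.28 ± 0.081), and Irf4, a factor of antigen-presenting cells, had -1.48 ± 0.05. Irf8, which drives monocyte and dendritic cell fate, was slightly higher (0.62 ± 0.036). Genes of the 2 classes of antigen presentation mostly went opposite ways. Of 12 tested MHC class II genes 6 were lower and 1 higher by 2-fold: Cd74, the invariant chain, read 819, 919.7 and 816 against 2779, 2922 and 2908 CPM, the class II transactivator Ciita had -2.16 ± 0.067 and H2-Ab1 -1.43 ± 0.041. Of 19 tested class I genes 9 were higher and none lower: B2m, the shared light chain, read 2899, 3108 and 2713 against 692, 716 and 730.3 CPM, and H2-K1 had 1.48 ± 0.039. Of the 3 immunoproteasome subunits, which interferon gamma induces, Psmb8 (-0.31 ± 0.06) and Psmb10 (-0.80 ± 0.081) were lower by under 2-fold, while Psmb9 averaged 97.2 CPM in EMT6 medium against 78.7 with IL-6. The Psmb9 difference (0.30 ± 0.046) was smaller in size than the shifts of -0.61 without the level filter and -0.53 with filterByExpr. Class I and class II heavy chain counts are uncertain where paralogs share sequence.

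Adhesion, complement and matrix genes were mostly lower. Among 13 tested leukocyte integrins 9 were lower by 2-fold and none higher; Itgam, which encodes CD11b, read 195, 214 and 214 CPM against 633, 667 and 656 (-1.65 ± 0.052). Cdh1, the adhesion protein E-cadherin, listed as an epithelial marker and also made by some macrophages and dendritic cells, fell from 920.1, 949 and 933 to 36.5, 32.8 and 33.9 CPM. Complement genes gave 6 of 10 lower and none higher by 2-fold, with C5ar1, the C5a receptor, at 35, 33.4 and 34.9 against 159, 166 and 166 CPM. Only IL-6 took 3 of the 10 complement genes past the filter, and the other 7 gave 4 lower and none higher. Among matrix proteases, Mmp12, the macrophage elastase, read 1429, 1382 and 1276 against 5885, 5991 and 6060.3 CPM and Mmp19 37.8, 37.2 and 35.9 against 480.2, 504 and 483, whereas Mmp13, a collagenase, was higher by under 2-fold (851 against 448 CPM) and Mmp2 rose at a low level (24.2 against 3.86 CPM).

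Purinergic genes were also mostly lower. Of 15 genes of purinergic receptors and of the ectoenzymes Entpd1 and Nt5e, 9 were lower by 2-fold (Entpd1 among them) and 2 were higher. Only IL-6 took 3 of the 15 past the filter, and the other 12 gave 6 lower and 2 higher. P2ry13, an ADP receptor, read 0.679, 1.07 and 0.904 CPM in EMT6 medium and 44.1, 43.6 and 42.4 with IL-6, so that the EMT6 medium level lay at the background density for a gene of its length (0.882 CPM). P2ry14, the receptor for UDP-glucose, had -2.50 ± 0.052, while Adora2a, the adenosine receptor that raises cyclic AMP, rose from 7.25, 6.47 and 7.83 to 48.6, 47.8 and 50.4 CPM. Of 14 listed kallikrein genes of the Klk1 cluster, 3 passed the level filter, and these 3 were lower by 2-fold. Of the 3, 2 passed only through their level with IL-6 and 1 passed in both groups. Klk1b9 and Klk1b11 fell from 10.2 to 0.25 and from 204 to 7.56 CPM. Among those under the filter the means went both ways, Klk1b27 at 0.648 CPM in EMT6 medium against 3.81 with IL-6 and Klk1b8 at 0.877 against 0.366. Genes of the cluster are near-identical, so reads of single members are uncertain. Adra2a, an adrenergic receptor, and Hgfac, the protease that activates hepatocyte growth factor, were also among the 12 largest falls (-4.64 ± 0.095 and -4.71 ± 0.10).

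Lineage transcription factors were lower more often than higher, with 11 of 25 lower and 3 higher by 2-fold. Spi1 (PU.1), the factor that all myeloid cells need, read 505, 507 and 481 against 429, 449 and 445 CPM (0.17 ± 0.042), and turned to -0.44 without the level filter and -0.36 with filterByExpr. Cebpa had -1.11 ± 0.046 and Cebpe, which drives granule genes, -1.27 ± 0.061. Pparg, which alveolar and alternatively activated macrophages use, read 7.08, 7.31 and 8.91 CPM against 54, 55.5 and 56.7, and Klf4 had -2.38 ± 0.072.

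Amino acid stress genes were mostly lower in EMT6 medium than with IL-6. The transcription factor Atf4 switches on genes of amino acid transport, amino acid synthesis and tRNA charging. Of 30 listed genes of this programme 14 were lower and 2 higher by 2-fold in EMT6 medium. The filter was passed only through IL-6 by 4 of the 30, and the other 26 gave 10 lower and 2 higher. Trib3, a pseudokinase target of Atf4, read 28, 29.6 and 27.8 CPM in EMT6 medium, 173, 183 and 182 with IL-6 and a mean of 28.5 with GM-CSF alone. The EMT6 medium libraries lay near the GM-CSF mean, and all 3 IL-6 libraries lay over 5-fold higher (-2.66 ± 0.054). Atf5 read 72.8, 71.9 and 72.6 against 493, 509 and 499.7 CPM, the leucine transporter Slc7a5 42.9, 40.3 and 38.9 against 430.2, 437 and 434, and the secreted Stc2 15.7, 15.8 and 15.4 against 153, 152 and 153. Each was also lower in EMT6 medium than with GM-CSF alone by its means (186, 169 and 72.7 CPM). The 2 members that rose by 2-fold were Atf3 (463, 475 and 456 against 114, 128 and 124 CPM) and Ddit3, which encodes CHOP (1.49 ± 0.056), both transcription factors of stress responses. Atf4 itself read 529, 542 and 532 against 474, 479 and 472 CPM (0.17 ± 0.038), and turned to -0.44 without the level filter and -0.36 with filterByExpr. Of 18 aminoacyl-tRNA synthetases, 17 were lower past the test and 5 by 2-fold, led by Iars at 37.5, 38.8 and 34.5 against 137, 138 and 132 CPM.

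Trib3 and Iars are shown because both were lower and both hold TGATG, any base and AA, letters of the C/EBP-ATF response element that Atf4 uses. The stretch runs from 150 bases before the start to 22 bases from it on, printed as above, for Trib3 at chr2:152344039-152344210 (minus strand) and Iars at chr13:49681980-49682151 (plus strand).
Trib3: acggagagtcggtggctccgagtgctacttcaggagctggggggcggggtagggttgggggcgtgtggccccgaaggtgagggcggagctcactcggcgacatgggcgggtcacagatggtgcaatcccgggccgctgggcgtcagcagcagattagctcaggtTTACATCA
Iars: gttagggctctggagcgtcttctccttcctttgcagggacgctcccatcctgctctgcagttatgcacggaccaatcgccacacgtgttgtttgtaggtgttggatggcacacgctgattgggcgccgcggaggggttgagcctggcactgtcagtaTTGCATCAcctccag
Both matches lie on the strand opposite to the gene, 14 (Trib3) and 7 (Iars) bases after the start. The windows of Stc2, Atf5 and Dars held none. Among 13 genes of the Atf4 list with a promoter and a 2-fold difference, 4 held the letters. These were Trib3, Chac1 and Vldlr, which were lower, and Atf3, which was higher. In the 300-base windows, 8 of 26 genes of the Atf4 list (30.8%) and 5 of 10 synthetases with a promoter in the table held the letters, beside 4.51% of all genes.

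Iron and antioxidant genes were mostly higher. Of 14 tested iron genes 9 were higher and 1 lower by 2-fold. The filter was passed only through EMT6 medium by 3 of the 14, and the other 11 gave 7 higher and 1 lower. Fth1, the ferritin heavy chain that stores iron, read 53622, 58302 and 51519.7 CPM in EMT6 medium and 9448, 9869.5 and 10205 with IL-6 (2.47 ± 0.052), and was the most abundant gene of the EMT6 medium libraries. Ftl1, the light chain, read 4725, 4888 and 4324 against 1104, 1175 and 1203 CPM. Hmox1, which frees iron from heme, read 4081, 4132 and 4139.6 against 424, 440.3 and 437 CPM (3.25 ± 0.038). All 3 held the groups apart with a narrow spread. Iron uptake and export genes rose too, the importers Slc11a2 (2.82 ± 0.054) and Tfrc (1.69 ± 0.046) and the exporter Slc40a1 (1.73 ± 0.047), while Aco1, which binds iron-responsive elements when iron is scarce, fell (-1.58 ± 0.062). Hamp, the hormone that blocks Slc40a1, went from 0.109 to 7.62 CPM. Of 21 tested NRF2 target genes 6 were higher and none lower by 2-fold. Sqstm1, an autophagy receptor, read 1414, 1375 and 1368 against 569, 579.5 and 581 CPM, and Txn1 had 1.49 ± 0.059. Of these 6, Sqstm1, Txn1, Nqo1, Prdx1 and Blvrb were under 2-fold without the level filter and with filterByExpr, and Hmox1 was not. The median of the NRF2 list, 0.64, was close in size to the shifts of -0.61 and -0.53 under these settings.

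Fth1 and Ftl1 are known to have many near-identical pseudogenes, so their counts depend on how reads with several positions were treated. Heat shock genes gave 4 of 14 higher and none lower by 2-fold. The filter was passed only through EMT6 medium by 2 of the 14. The other 12 gave 2 higher and none lower, with a median of 0.26. Hspa1b, a stress-induced chaperone, read 190.4, 192 and 198 CPM against 9.46, 10.8 and 10.9, and Hspa1a 86.3, 76.2 and 88 against 4.71, 4.8 and 4.47, a pair of near-identical genes whose reads are uncertain between them. The constitutive Hspa8 read 224, 226 and 221 against 228, 229 and 237 CPM (-0.049 ± 0.035; edgeR adjusted p = 0.196), and passed as slightly lower without EMT6 medium replicate 1 (adjusted p = 0.0285) or 2 (0.0193). Of 18 endoplasmic reticulum genes none was higher and 2 were lower by 2-fold, neither of them a chaperone: the transcription factor Xbp1 (-1.65 ± 0.04) and Sel1l, a part of the degradation machinery (-1.07 ± 0.045).

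Glycolysis genes were mostly lower, by modest amounts. Of 20 glycolysis genes 16 were lower past the test, 3 of them by 2-fold, with Eno1 at 571, 593 and 555 CPM against 1371, 1425 and 1416 and Ldha at -0.70 ± 0.047. Pfkfb3, which makes the activator of phosphofructokinase, was the 1 member higher by 2-fold (751, 685 and 751 against 233, 229 and 225 CPM). HIF-1 target genes gave 6 of 20 lower and none higher by 2-fold, with Pdk1 at -1.97 ± 0.044; Hif1a itself had 0.40 ± 0.035 and turned to -0.21 without the level filter and -0.13 with filterByExpr. Lipid genes were mixed. The fatty acid carriers Fabp4 and Fabp5 rose from 4.32 to 115 and from 58.7 to 301 CPM, while the lipase Lpl fell from 231 to 44.1 and Acly, which supplies cytosolic acetyl-CoA, from 773 to 213. Ch25h, which makes 25-hydroxycholesterol, fell to 2.6, 3.05 and 2.84 CPM from 52.1, 55.3 and 55.8, and Insig1, a sterol-sensing brake, rose from 44.5 to 221.

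Lysosome and immediate early genes were mixed. Of 26 lysosome genes 4 were higher and 2 lower by 2-fold. Ctsl, the protease cathepsin L, read 9756, 9911 and 9316 CPM in EMT6 medium and 2271, 2334 and 2366 with IL-6 (2.06 ± 0.049), Npc2, a cholesterol carrier, 2064, 2167 and 2008 against 647, 657 and 667, and Man2b1, an alpha-mannosidase, 228, 227 and 222 against 722, 752 and 732. Of 23 immediate early genes 8 were higher and 6 lower by 2-fold: the phosphatase Dusp1 had 2.02 ± 0.052 and the transcription factor Egr1 -1.87 ± 0.069. Of 19 tested cholesterol synthesis genes 1 was higher (Msmo1, 1.23 ± 0.052) and 1 lower by 2-fold. Vnn3, a pantetheinase, lay in no list and rose from 1.23, 1.37 and 1.78 to 197, 209 and 201 CPM. Actb, the cytoskeletal actin often used as a reference gene, fell from 4121, 4249.8 and 4164 to 1326, 1288 and 1305 CPM (-1.68 ± 0.041).

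Few cell cycle genes differed by 2-fold. Of 25 tested DNA replication genes 18 were higher and 3 lower past the test, and 1 was higher by 2-fold and none lower. Of 24 mitosis genes 16 were higher and 3 lower past the test, and 1 was higher by 2-fold and none lower. Of all tested genes 43.7% were higher and 41.7% lower past the test. The medians of the 2 lists, 0.32 and 0.35, were smaller in size than the shifts of -0.61 without the level filter and -0.53 with filterByExpr. Mki67, the proliferation marker, read 233, 216 and 231 CPM in EMT6 medium and 220.3, 219.9 and 214 with IL-6; the libraries overlapped and the difference did not pass (0.055 ± 0.049; edgeR adjusted p = 0.29). It passed with a limit of 20 CPM (0.12, adjusted p = 0.0264) and with the background subtracted (0.11, 0.0413), and its value turned to -0.56 without the level filter and -0.48 with filterByExpr. Gadd45b, a stress gene of the p53 and inhibitor list, read 1032, 1028 and 979.6 against 55.4, 51.4 and 53.2 CPM, and Mdm2, which p53 induces and which degrades it, 461, 458 and 478 against 144, 140.2 and 141, whereas Cdkn1a, a cell cycle inhibitor, differed by far less (-0.13 ± 0.039), and did not pass with a limit of 20 CPM (edgeR adjusted p = 0.106) or with the background subtracted (0.167). Genes of MYC and ribosome biogenesis were lower, 12 of 21 by 2-fold and none higher; Mybbp1a read 30.1, 32.1 and 30.3 against 136, 145 and 136 CPM and Ncl, the nucleolin, had -1.05 ± 0.044.

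Mitochondrially encoded transcripts were mostly lower. Of 11 tested mitochondrial mRNAs 10 were lower by 2-fold, with mt-Cytb at 190.3, 189.6 and 164 CPM against 1532, 1585 and 1583 and mt-Nd5 at 284, 269 and 244 against 1122, 1193 and 1151. The filter was passed only through IL-6 by 2 of the 11, and 8 of the other 9 were lower by 2-fold. The exception was mt-Co1, the most abundant of them, at 6130.4, 5741 and 5119 against 6089, 6269.7 and 6256 CPM. It overlapped between the groups and did not pass (-0.13 ± 0.07; edgeR adjusted p = 0.0815), but passed with DESeq2 size factors (0.0438) and without EMT6 medium replicate 1 (0.00482) or 2 (0.0289). Of 29 nuclear oxidative phosphorylation genes 13 were higher and 10 lower past the test, 2 of them higher and none lower by 2-fold. Nuclear copies of mitochondrial sequence make counts of the mitochondrial genes uncertain, and the difference between the 2 lists was not tested.

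Markers of other cell types moved as well, and are given whole. Of 10 B cell markers 7 passed the filter and 7 were higher by 2-fold. The B cell list summed to 989 to 1060 CPM in EMT6 medium and 240 to 249 CPM with IL-6, with no marker at 0 in either group. Cd79b, a chain of the B cell receptor complex, read 159, 167 and 149 CPM against 24.9, 26.2 and 25.9, far above the 0.499 CPM that the background density gives, and Ighm, the IgM heavy chain, 552, 587 and 541 against 137, 141 and 144. Of 6 tested eosinophil markers, 3 passed the filter in both groups, and of these 2 were higher and none lower by 2-fold. The 2 were the granule proteins Prg2 (678, 694 and 597 against 163, 169.8 and 178 CPM) and Epx (1.54 ± 0.056). The 3 that passed only through IL-6 fell: Siglecf (-2.80 ± 0.11), Alox15 (2.66, 3.35 and 2.97 against 23.5, 24 and 23.7 CPM) and Rnase2a (4.19, 3.65 and 2.58 against 88.8, 92.9 and 95.4 CPM). The list summed to 1049 to 1176 CPM in EMT6 medium and 465 to 489 with IL-6. T and NK cell markers summed to 25 to 32.6 CPM in EMT6 medium and 12.7 to 14.5 with IL-6, and 3 of 11 passed the filter. Megakaryocyte markers gave 1 higher and 5 lower by 2-fold of 8, with sums that overlapped (1011 to 1166 and 1089 to 1124 CPM). Of these 8, 3 passed the filter only through IL-6, and among the other 5, 1 was higher and 2 lower by 2-fold. Mast cell and basophil markers summed to 218 to 230.4 CPM against 313 to 321, with 3 of 7 tested lower by 2-fold, and endothelial markers to 158 to 166 against 308 to 309, with 1 higher and 1 lower of 4 tested. Of the erythroid list only the transferrin receptor Tfrc passed the level filter, the globins did not, and 1 marker was at 0 with IL-6.

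Stromal markers summed to 208 to 220 CPM in EMT6 medium against 137 to 143 with IL-6. Of 12, 10 were tested, of which 6 passed the filter only through EMT6 medium and 1 only through IL-6. Among the other 3, 2 were higher and none lower by 2-fold. Over all 10 tested, 8 were higher and 1 lower by 2-fold. Most stayed low: Dcn, a matrix proteoglycan of fibroblasts, read 12, 12 and 9.81 CPM against 0.218, 0.171 and 0.21, where the background density gives 2.04 CPM in EMT6 medium, and Col1a1 read 11.3 against 2.08 CPM with a background of 2.29. Of 10 epithelial and carcinoma markers 3 passed the filter and the keratins Krt8, Krt18 and Krt19 did not, while the list summed to 70.2 to 72 CPM in EMT6 medium and 986 to 1014 with IL-6, mostly Cdh1, with 1 marker at 0 there. The part of these cells, or of their RNA, in the differences above was not tested.

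**Figure D4:**
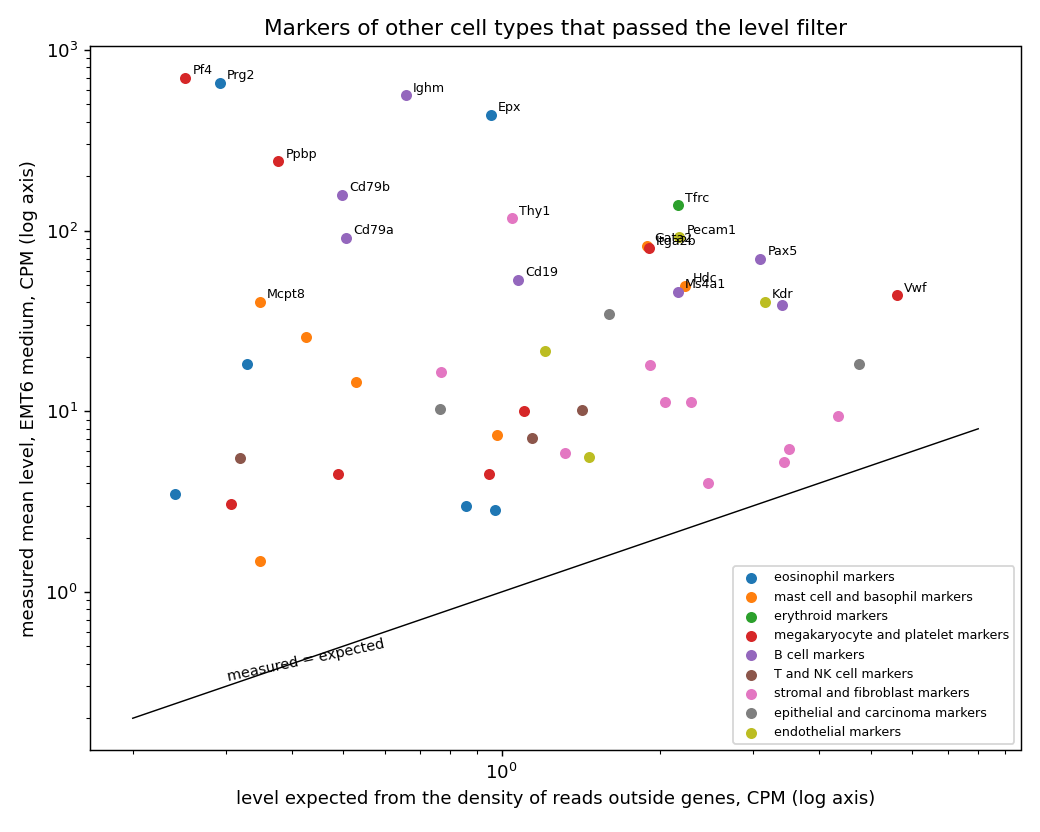
Measured mean CPM in EMT6 medium against the CPM expected from the density of reads outside genes (both axes log), 1 point per tested marker of another cell type, with the line of equality; colours give the marker list. Each plotted marker lies above the line; several stromal markers come near it, while B cell markers such as Cd79b and Ighm lie far above.

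The same contrast in marrow labelled Cysltr1-deficient asks whether the difference between the 2 media depends on that genotype. Cysltr1 itself was not lower in those libraries: it read 83.6, 86 and 82.4 CPM with IL-6, against 67.9, 67.5 and 69.2 in WT, and 8.24, 12.1 and 9.03 in EMT6 medium, against 4.7, 5.18 and 5.1. The deleted part is not given in the sources used here, so a transcript outside it could still be counted. Of the 1960 genes higher by 2-fold in WT, 1941 were also higher and passed in the labelled-deficient libraries, and of the 1365 lower, 1335 were lower and passed (in that genotype 42.5% of tested genes passed in the higher and 43.8% in the lower direction). A difference between the genotypes beyond 2-fold (edgeR's glmTreat on the interaction, adjusted p under 0.05) was found for 79 genes (0.657%), with a more positive change in WT for 39 (0.324%) and a more negative one for 40 (0.333%). The EMT6 medium libraries labelled deficient had more background (50.2% of reads in no feature, against 36.2% in WT), and the part of this in the 79 genes was not tested.

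Granule genes stood on one side of that interaction. Camp fell in WT (-3.17 ± 0.11) but had 0.04 ± 0.14 in labelled-deficient marrow, an interaction of -3.21 ± 0.19 (glmTreat adjusted p = 1e-09). Retnlg gave -4.26 against -0.41, Ltf -3.40 against -1.65, Mpo -3.58 against -2.22 and Elane -1.27 against 0.44. Each of these was lower in WT. In the labelled-deficient cultures Elane was instead higher, as was Ngp (-0.74 in WT and 1.17). Ly6g gained more in labelled-deficient marrow (2.19 ± 0.055) than in WT (0.38 ± 0.046, whose sign turned without the level filter), as did Ly6c2 (2.79 and 0.86). On the other side, Ccl4 gained more in WT (3.48 ± 0.062 against 1.27 ± 0.061), as did Ptges, Acod1, Clec4e, Ccl7, Cxcl3 and Ifit1. The collagenase Mmp13 was higher in WT (0.92 ± 0.045) and lower in the labelled-deficient cultures (-2.24 ± 0.047), and so was the growth factor Hbegf (0.80 and -1.64). Csf3, Cxcl1, Rsad2, Arg1 and Mrc1 were not among the 79 genes, with 8.49, 7.85, 6.04, -4.35 and -4.43 as their log2 fold changes in labelled-deficient marrow.

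**Figure D5:**
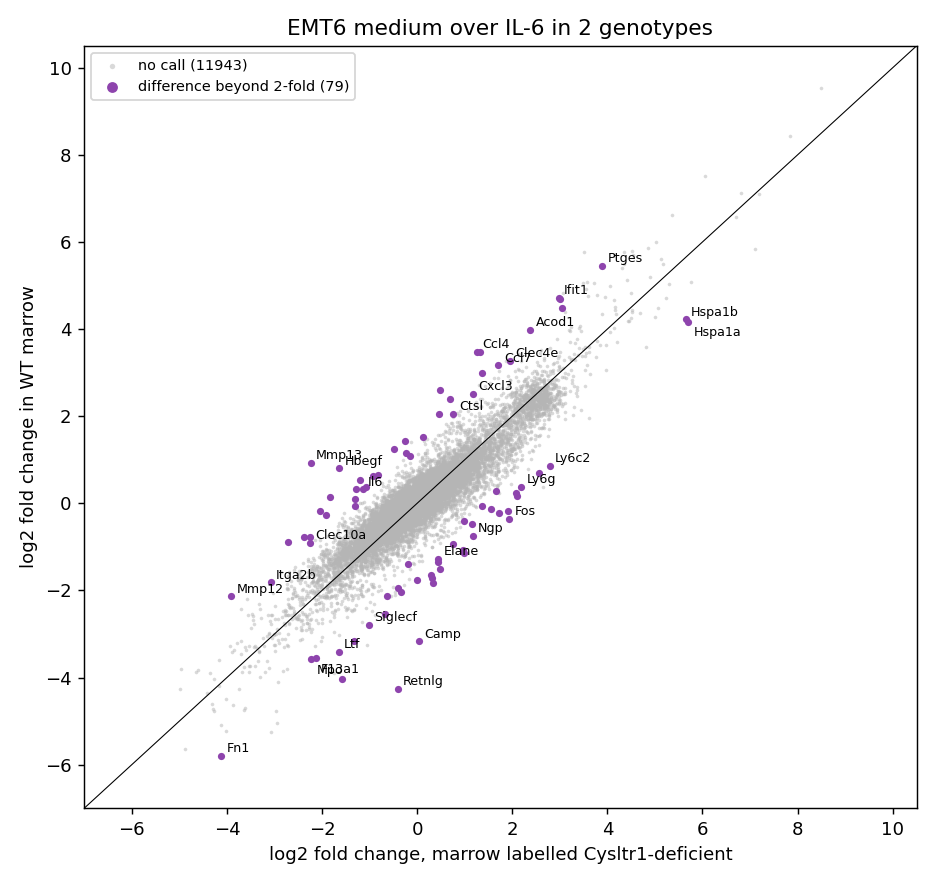
Log2 fold change (EMT6 medium over IL-6) in WT marrow against that in marrow labelled Cysltr1-deficient, 1 point per tested gene with the line of equality; purple points are the 79 genes whose difference between genotypes passed beyond 2-fold. Camp, Retnlg and Ltf lie below the line, and Mmp13, Hbegf and Ccl4 above it.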

How the data were processed

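Poly(A) RNA was sequenced from 18 libraries (3 culture groups, 2 labelled genotypes, 3 samples each). The deposited raw counts per gene were made by the authors with HISAT2 2.1.0 and HTSeq 0.13.5 on mm10, per the submitters' processing notes, which also name DESeq2 1.34.0; the annotation and the strand setting are not given in the sources used here, so reads of overlapping or antisense genes cannot be separated. The 18 columns of a deposited normalized table were not used. Entries with only a number, spikes and the summary lines of the counter stayed out of library sizes; numbered entries held 0.208% of feature counts in WT EMT6 medium libraries.

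Genes with a mean of at least 5 CPM in either compared WT group were fitted with edgeR 4.0.16 (R 4.3.3; TMM factors, quasi-likelihood test, 1 mean per group over all 18 libraries), with Benjamini-Hochberg adjustment over 12022 genes. The standard error is the log2 fold change divided by the square root of F. A call needed an adjusted p under 0.05 and a 2-fold difference; the genotype difference used glmTreat against 2-fold. On simulated counts for these 12022 genes the test found 47 of 50 genes changed by 1.5-fold, 49 of 50 at 2-fold, 50 of 50 at 3-fold and 50 of 50 at 4-fold, with 14 false calls. These were scored by adjusted p alone, without the 2-fold limit. The simulation changed few genes and held no background difference, whereas 85.4% of genes passed in the data. It therefore did not test scaling or false calls under the conditions of these libraries. Replicates differed by more than counting noise, so none was merged.

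Genes were named by a rule (the 12 largest rises and 12 largest falls without overlap and without a predicted-gene name, for each list the 3 members of smallest p, and fixed genes), which gave 214 of the 365 named or recomputed genes; 151 were added after their values were seen. Lists and genes were chosen with earlier results of these data known. A few genes named by it are not reported here. Promoter stretches are from RefSeq, GRCm38.p6, in which 9083 tested genes matched by symbol. Alternatives were other scaling, filters, DESeq2 1.42.0, fewer libraries, a replicate block and background subtraction.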

Additional observations from a re-analysis of the deposited data

Results flagged for a closer look

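The difference between EMT6 medium and IL-6 itself differed between WT marrow and marrow labelled Cysltr1-deficient for the genes below, by edgeR's glmTreat test of the interaction against 2-fold. Values are the log2 fold change in WT minus that in the labelled-deficient cultures, and the Cysltr1 transcript was not lower in the latter. The WT change was more positive for the following genes. Among chemokines and cytokines the interaction was 2.21 for Ccl4, 1.46 for Ccl7, 1.34 for Cxcl3, 1.47 for Il6 and 2.44 for Hbegf. Among enzymes it was 1.61 for Acod1, 1.29 for Ctsl, 1.78 for Mmp12, 3.17 for Mmp13 and 1.57 for Ptges. For the lectins Clec10a and Clec4e it was 1.34 and 1.32, for the antiviral gene Ifit1 1.74 and for the integrin Itga2b 1.26.

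The WT change was more negative for granule and neutrophil genes: -3.21 for Camp, -1.71 for Elane, -1.75 for Ltf, -1.36 for Mpo, -1.92 for Ngp, -3.85 for Retnlg and -1.81 for Ly6g. It was also more negative for the monocyte genes Ly6c2 (-1.93) and F13a1 (-1.43) and for Fn1 of the macrophage list (-1.68). The same held for the eosinophil marker Siglecf (-1.78), for Fos (-2.28) and for the chaperones Hspa1a (-1.54) and Hspa1b (-1.43). Reads in no feature were 50.2% in the labelled-deficient EMT6 medium libraries and 36.2% in WT, and their part in these values was not tested.

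Entries listed only by a number, which the comparison does not use, took 0.208% of feature counts in WT EMT6 medium libraries and 0.0471% with IL-6.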

How the results depend on the processing

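The counts of 1960 genes higher and 1365 lower by 2-fold stayed within 1.5 times under DESeq2 size factors, library sizes alone, DESeq2's own test, a test against 2-fold, fewer libraries and each left-out library, with leave-one-out ranges of 1848 to 1977 and 1358 to 1469. The 79 genotype differences were 83 with DESeq2 size factors, 89 with library sizes alone, 63 with DESeq2's own test, 78 with the 12 libraries of these cultures, 116 without the level filter, 97 with filterByExpr, 65 with a limit of 20 CPM and 70 to 78 with a library left out; they were not recomputed for the test against 2-fold or for WT libraries alone. With no fold limit the counts were 5253, 5009 and 5925. Without the level filter 12199 genes were higher and 4868 lower (71.5% of calls higher, against 58.95%), and with filterByExpr 11567 and 4140 (73.6%). With a limit of 20 CPM they were 822 and 882 (48.2% higher), and with the background subtracted 1568 and 1594 (49.6% higher), with 219 genotype differences.

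Of the genes recomputed, 9 changed sign without the level filter and with filterByExpr. The 2 values were -0.44 and -0.36 for Atf4, -0.089 and -0.0058 for Cxcr4, -0.21 and -0.13 for Hif1a, -0.29 and -0.20 for Il6, -0.23 and -0.15 for Ly6g, -0.56 and -0.48 for Mki67, -0.28 and -0.20 for Nos2, -0.23 and -0.15 for Socs3, and -0.44 and -0.36 for Spi1. These settings shift all genes of the comparison by -0.61 and -0.53, because the many added low genes enter the scaling.

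With the replicate number as a block the counts were 1959, 1364 and 74. Deviations of same-numbered libraries correlated at 0.0756, -0.0936 and -0.11, and those of differently numbered libraries at -0.17 to 0.242. Each deviation was taken from the mean of its own group. These values therefore cannot tell whether same-numbered libraries shared a pool or a culture. EMT6 medium libraries were shallower and held more reads outside genes, which limits what can be said of genes under 20 CPM.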
